A study of Mus musculus with 11 samples.

Results

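Cytosolic ribosomal protein genes encode the proteins that, with ribosomal RNA, form the small (40S) and large (60S) subunits of the ribosome in the cytoplasm. They were chosen by symbol from the protein-coding genes of the RefSeq annotation of the mm10 build: Rpl or Rps followed by a number with any suffix, or Rplp0, Rplp1, Rplp2 and Rpsa, without the Rps6k kinases and without pseudogene symbols. The rule found 89 of 21887 genes. Of these, 77 encode core proteins of the ribosome, 46 in the large and 31 in the small subunit. A further 7 are paralogues of core genes (Rpl3l, Rpl7l1, Rpl10l, Rpl22l1, Rpl36al, Rpl39l and Rps27l), 3 are retrogene-like copies (Rps27rt, Rpl32l and Rpl37rt), and 2 carry the symbol without encoding a ribosomal protein, Rps19bp1, whose product binds Rps19, and Rps23rg1. The core genes Fau, which encodes a fusion with a ubiquitin-like protein, and Rack1 fall outside the symbol rule and are described separately below.

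Ribosomal protein genes are transcribed in nearly every cell, and most have short promoters with an unusual start: transcription begins at a cytosine inside a run of pyrimidines. The messenger RNAs therefore carry a terminal oligopyrimidine (TOP) tract at the 5′ end, through which the growth regulator mTOR and the RNA-binding protein Larp1 control their translation. Ribosome synthesis is a large cost of growth, and macrophages adjust it with growth factor signalling and activation.

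ATAC-seq uses a transposase that cuts and tags open chromatin, and here it was applied to sorted alveolar macrophages of C57BL/6 mice. The 3 groups were naive mice (4 samples) and mice given cultured KP or KP-GFP tumour cells by tail vein injection, with lungs taken 15 days (4 samples) or 30 days (3 samples) later. Tumour foci thus grew from injected cells, and the labels do not tell which samples had KP-GFP cells or how old the mice were. The labels number the samples 4, 4 and 3, while the design text speaks of triplicates, and whether the samples came from separate mice is not stated.

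Peaks were deposited as 1 list per group, which leaves the values without replicate error and allows no test between conditions. There were 14731 naive peaks, 10861 at day 15 and 3352 at day 30, although the background recovered from the peak values put the depth of the later lists at 2.38 and 2.1 times the naive depth. A boundary peak is one no more than 1000 bp from the first or last base of a gene. A gene was kept, lost or gained according to whether a later list and the naive list held such a peak, so these words refer to calls by the peak caller. In bulk samples, fewer cells of a type and less accessible DNA per cell cannot be told apart. Of 13 alveolar macrophage markers, 5, 4 and 1 had one in the naive, day 15 and day 30 lists, with Bhlhe40 in every list and Siglecf, Marco and Chil3 in none, and of 6 general macrophage markers 4, 5 and 1 did. Among markers of other cells, 1 of 5 for T cells (Cd3d, with 12 and 19 tags and none at day 30) and 1 of 5 for neutrophils (S100a8, with 13, 17 and 12 tags) had a boundary peak, and those of B cells, epithelium and tumour, endothelium and monocytes had none. Their part in the results was not tested.

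The promoters below show the sequence behind these calls, from 80 bases before to 15 bases after a RefSeq start (GRCm38.p6, the assembly of mm10), with the longest pyrimidine run within 15 bases of the start in capitals. Rpl15 and Rps21 had the highest naive peaks, Rpl35 shows a long TOP-like run, Rpl38 had no boundary peak in any list, Rpsa had one at day 15 and Rpl9 one at day 30.
Rpl15, chr14:18270972-18271066, minus strand: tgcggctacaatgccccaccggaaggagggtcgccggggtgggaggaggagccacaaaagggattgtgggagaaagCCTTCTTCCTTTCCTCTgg
Rps21, chr2:180257299-180257393, plus strand: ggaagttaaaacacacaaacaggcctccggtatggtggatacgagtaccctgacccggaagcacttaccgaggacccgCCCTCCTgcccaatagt
Rpl35, chr2:39005117-39005211, minus strand: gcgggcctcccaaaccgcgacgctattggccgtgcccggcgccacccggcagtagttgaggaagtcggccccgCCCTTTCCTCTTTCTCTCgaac
Rpl38, chr11:114668500-114668594, plus strand: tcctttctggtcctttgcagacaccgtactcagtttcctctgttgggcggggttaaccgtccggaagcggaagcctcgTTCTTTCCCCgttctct
Rpsa, chr9:120127686-120127780, plus strand: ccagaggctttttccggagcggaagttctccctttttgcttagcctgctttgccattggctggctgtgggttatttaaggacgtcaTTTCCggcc
Rpl9, chr5:65391417-65391511, minus strand: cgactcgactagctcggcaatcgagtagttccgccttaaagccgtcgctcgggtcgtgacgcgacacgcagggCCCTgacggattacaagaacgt
The run at Rpl15 is CCTTCTTCCTTTCCTCT and that at Rpl35 CCCTTTCCTCTTTCTCTC, both across the start, and Rpl38, without a boundary peak, has TTCTTTCCCC in the same place.

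Of the 89 members, 69 have an entry in the promoter table, with 81 starts. A pyrimidine run of at least 5 bases that included the annotated first base was found at 23 of 81 member starts (28.4%), against 8.59% of all 21263 promoters of protein-coding genes. Whether the annotated base is the one used in these cells was not tested. At Rpl13a, for example, a run of 13 pyrimidines began at position 3, just past the annotated start. The annotated first base was C at 30.9% of member starts and 13.8% of all. The ETS-type motif CCGGAAG, searched on both strands of 300 bases, was in 33.3% of member promoters and 11.6% of all promoters. AAGATGG, the core of the YY1 motif, was in 14.8% and 6.24%. The GC box GGGCGG was in 58.0% and 46.2%, CCAAT in 30.9% and 38.2%, the TATA box TATAAA in 9.88% and 12.6%, and the NRF1 palindrome in 9.88% and 8.57%. No motif contains another, but matches such as those of CCGGAAG and AAGATGG can overlap at their edges. Promoters of core genes with a boundary peak in every list (15 genes) had CCGGAAG in 53.3% and those without one in any list (8 genes) in 50.0%. A start run was found in 6 of those 15 genes and in 1 of those 8. The numbers are small, and a match is a description of letters and not a bound site.

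Most cytosolic ribosomal protein genes lay at open chromatin in naive alveolar macrophages. A boundary peak was present at 65 of the 89 members in the naive list (73.0%, 95% Wilson interval 63.0 to 81.2), beside 34.7% of all protein-coding genes. In the day 15 list 62 members had one (69.7%, 59.5 to 78.2), against 29.6% of all genes, and in the day 30 list 25 (28.1%, 19.8 to 38.2), against 12.8%. The intervals cover counting error over genes only. Member genes are short, with a median length of 3183 bp against 17169 bp for all genes, and of 2888 other genes between the 10th and 90th percentile of core gene length 26.3%, 21.7% and 8.48% had a boundary peak in the 3 lists. Initiation and elongation factor genes, with 76.1%, 70.4% and 36.6% of 71 genes, and mitochondrial ribosomal protein genes, with 66.7%, 53.8% and 23.1% of 78, had shares whose intervals overlapped those of the members in every list.

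**Figure D1:**
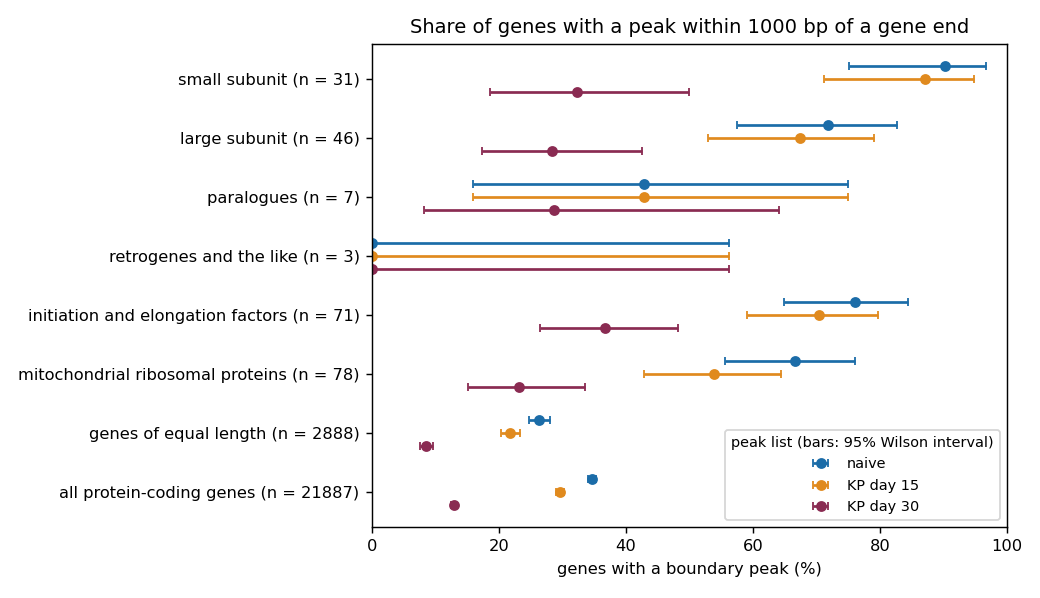
Share of genes with a boundary peak (x axis, percent) in the naive, KP day 15 and KP day 30 peak lists, for classes of cytosolic ribosomal protein genes and for comparison sets (y axis); points are shares and bars 95% Wilson intervals over genes. Small and large subunit genes lie far above genes of equal length in the naive and day 15 lists, where 90.3% and 71.7% against 26.3% had a naive peak, and the retrogene-like copies lie at 0.

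The peaks of these genes were of ordinary height. The median −log10 p of the strongest boundary peak was 14.5 in 65 members and 15.2 in all 7594 genes with a naive boundary peak, and the median summit pileup, the number of tags stacked at the highest point, was 17 and 19 tags. In the day 15 list the medians were 21 and 22 tags, and in the day 30 list 16 and 17. In each list the member median was thus within 2 tags of that of all genes with a boundary peak.

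Small subunit genes had a naive boundary peak in 28 of 31 cases and large subunit genes in 33 of 46, with intervals that overlapped (75.1 to 96.7% and 57.5 to 82.7%). At day 15 the counts were 27 and 31, and at day 30 they were 10 and 13, so that the share at day 30 was close in both subunits (32.3% and 28.3%). Of the small subunit genes only Rps2 had no boundary peak in any list, whereas 9 large subunit genes had none.

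Within the small subunit, Rps21 had the highest naive peak, with 48, 30 and 21 tags in the naive, day 15 and day 30 lists. Divided by the value taken as the genome-wide background of each list, as a correction for depth, these were 61.2, 16 and 12.8 times background. Such a fall was list-wide. In all kept genes the median ratio to the naive value was 0.439 at day 15 and 0.290 at day 30, and in kept members 0.484 and 0.289. Rps29 had 40, 44 and 21 tags and ranked at place 146 of 10861 in the day 15 list by −log10 p. Rps12 had 36, 37 and 13 tags, Rps3a1 had 35, 30 and 28, and Rps19, mutated in Diamond-Blackfan anaemia, had 29, 36 and 16. Rps3a1 was the only 1 of the 24 members with a boundary peak in every list whose height over background was greater at day 30 (17.0) than at day 15 (16), and it ranked at place 110 of 3352. Rps6, the substrate of the S6 kinases and a marker of mTOR activity, had 29 and 26 tags in the naive and day 15 lists and no boundary peak at day 30.

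In the large subunit Rpl15 had the strongest peak of all members, with 62, 49 and 27 tags (79.0, 26.2 and 16.4 times background). It lay on chromosome 14 at 18270674 to 18271521 in the naive list, 18270695 to 18271437 at day 15 and 18270965 to 18271389 at day 30, across the start printed above. The naive summit was at position -232 from that start, and in every list the summit was nearer to the neighbouring gene Nkiras1, so the peak cannot be assigned to 1 of the 2 genes. Rpl37 had 38, 33 and 15 tags, with the naive and day 30 summits nearest to Card6. Rpl30 had 41, 25 and 16, Rpl7 had 41, 34 and 25, and Rpl27a had 33, 32 and 26. Rpl10, whose protein is added last to the maturing subunit near the peptidyl transferase centre, had 16, 30 and 15 tags and kept its peak at day 30. Rpl34 (29, 27 and 19 tags) and, in the small subunit, Rps23 (27, 29 and 19) and Rps7 (24, 30 and 11) also had one in every list. Rpl13a, which in activated myeloid cells also takes part in a complex that silences inflammatory messenger RNAs, had 25, 33 and 15 tags and was kept throughout. The 33 members with a naive and a day 15 boundary peak but none at day 30 ran from 10 to 36 tags in the naive list and from 12 to 28 at day 15.

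The stalk proteins, which recruit translation factors to the large subunit, are encoded by Rplp0, Rplp1 and Rplp2. Rplp0 had 18, 27 and 19 tags and Rplp1 had 17, 24 and 14 tags, so both had a boundary peak in every list. Rplp2 had 15 and 18 tags and none at day 30, and its day 15 summit was nearest to Pidd1. Rpsa, the small subunit protein also known as a laminin receptor, had a boundary peak only in the day 15 list, with 17 tags.

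**Figure D2:**
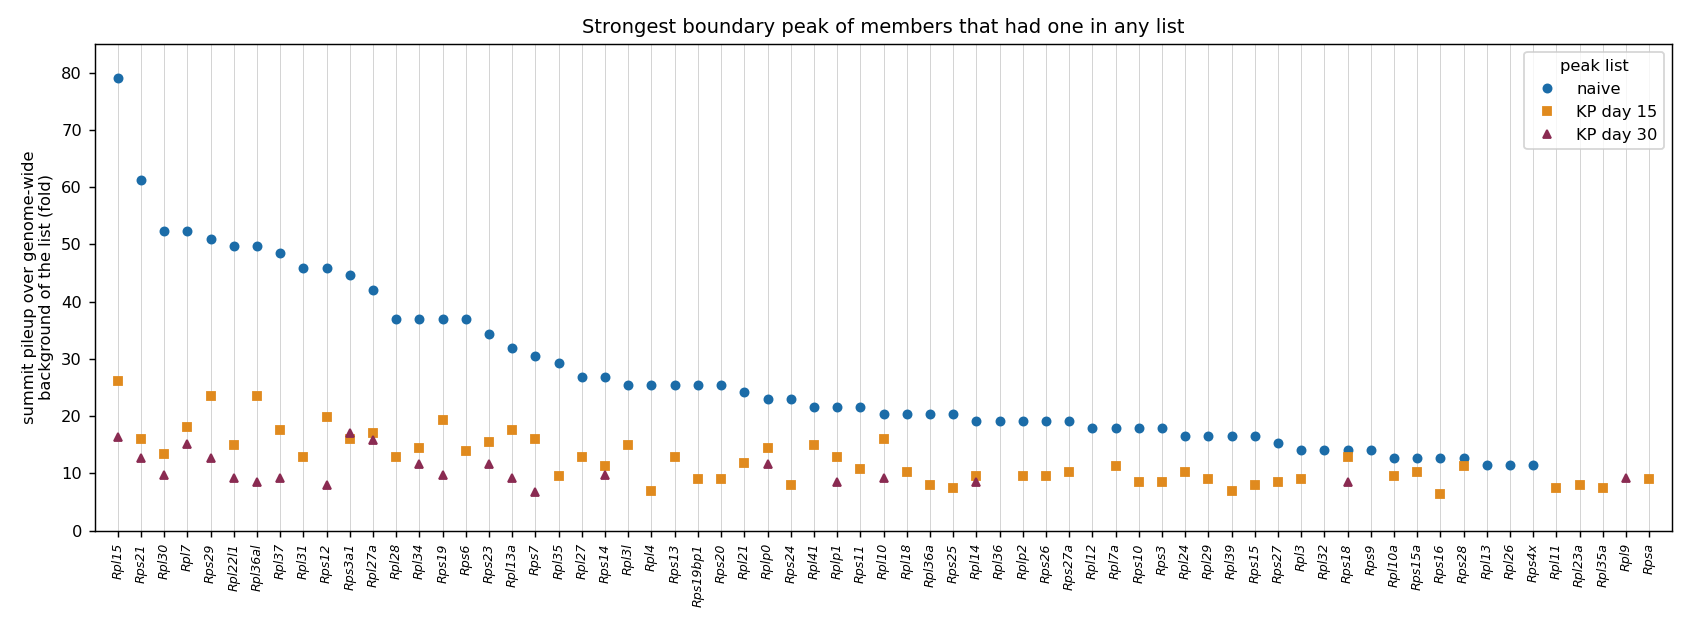
Summit pileup of the strongest boundary peak divided by the genome-wide background of its list (y axis, fold) for members with a boundary peak in any list (x axis, 4 left out, ordered by the naive value); circles are naive, squares KP day 15 and triangles KP day 30, and a missing symbol means no boundary peak. Naive values run from 79.0 at Rpl15 to 11.5 at Rps4x, all kept members lie lower at day 15, and 5 members at the right have no naive peak.

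In the reported setting, the day 15 share of ribosomal protein genes still called was within counting error of that of other genes. This did not hold in every alternative run. Of the 65 members with a naive boundary peak 57 were kept (87.7%, 95% Wilson interval 77.5 to 93.6), beside 79.6% of all genes. When each member was given the share kept among the other genes of equal naive strength, in 20 groups of equal size by −log10 p, the expected number was 51.6. The interval holds both the share of all genes and that expected from equal strength. It gives all members a common share, whereas the expected share differed between them, and the spread under that matching was not computed. The 49 members outside the weakest 25% of naive genes were all kept, including all 19 in the next 25%, where other genes were kept in 76.1% of cases. In the weakest 25%, 8 of 16 were kept, beside 48.4% of other genes. At all 57 kept members a naive and a day 15 peak overlapped.

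The 8 members lost at day 15 all came from the weakest 25% of naive genes. They included Rpl12, Rpl13, Rpl26, Rpl32, Rpl36, Rps4x and Rps9. All 8 had 9 to 15 tags in the naive list and no boundary peak at day 30. Of all 1552 genes lost at day 15, 1494 had none at day 30 either. Rps4x, the X-linked small subunit gene, and Rpl13 and Rpl26 had 9 tags each, Rpl32 and Rps9 11, Rpl12 14 and Rpl36 15. Among other genes of the same naive strength as Rps4x, Rpl13 and Rpl26, 44.0% were kept. The Rpl36 peak had its summit nearest to the neighbouring gene Micos13, and the Rps9 peak lay 3173 bases after the start, so these 2 losses need not concern the promoters of the ribosomal protein genes. Of all genes with such a peak, 20.4% were lost at day 15.

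At day 15 a boundary peak was gained by 5 of the 24 members without a naive one, among them Rpl11, Rpl23a, Rpl35a and Rpsa, where 3.04% of all genes without one gained one. Rpl11, which with Rpl5 carries 5S ribosomal RNA and binds the p53 regulator Mdm2, had 14 tags, Rpl35a also 14, Rpl23a 15 and Rpsa 17. Scaled to the naive depth these were 5.87 tags at Rpl11 and Rpl35a, 6.29 at Rpl23a and 7.13 at Rpsa, where the lowest naive peak had 6 tags. Whether depth had a part in these gains was not tested. The nearest naive peak lay 2050 bp from Rpl35a, 2812 bp from Rpl23a, 17259 bp from Rpsa and 27411 bp from Rpl11. None of the 5 gained members had a boundary peak at day 30, and neither did 420 of all 435 genes gained at day 15.

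The strongest boundary peaks of kept members were lower over background at day 15 than in the naive list, as were those of nearly all genes. The strongest peak was taken in each list separately, so a ratio need not follow the same peak. At Rpl41 the naive value came from a peak past the far end of the gene and the day 15 value from a peak at its start. The median ratio of the day 15 to the naive value was 0.484 in 57 kept members and 0.439 in all 6042 kept genes. No member of the 57 and 26 of the 6042 kept genes had a ratio above 1. In 34 of the 57 members (59.6%) the ratio exceeded the median of the other kept genes of equal naive strength, where 49.4% of all kept genes did. The lowest ratio was that of Rpl30 (0.256) and the highest those of Rps18 (0.915) and Rps28 (0.881).

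Rps18 had 11, 24 and 14 tags in the 3 lists and Rps28 had 10 and 21 tags and no boundary peak at day 30. Rps15a followed with 10 and 19 tags and a ratio of 0.797. These 3 small subunit genes, named after their values were seen, had weak naive peaks and 19 to 24 tags at day 15, where the median of all genes was 22. The Rps28 naive summit and the Rps18 day 15 summit were nearest to the neighbouring genes Ndufa7 and Vps52.

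At day 30 the ribosomal protein genes followed the shrinking of the list. Of the 65 naive members 24 were kept (36.9%, 95% Wilson interval 26.2 to 49.1), beside 36.5% of all naive genes, and the number expected from genes of equal naive strength was 24.0. The share was thus that of the background, and likewise 41 members were lost beside 63.5% of all genes. With the top 3352 peaks of every list, 18 of 24 members (75%) were kept, beside 67.9% of all genes. Kept members were the strong ones: 16 of 19 in the strongest 25% of naive genes, 4 of 11 in the next, 3 of 19 in the next and 1 of 16 in the weakest. Other genes had the same gradient, with 77.3%, 43.3%, 18.2% and 7.01% kept in these groups. All 24 kept members also had a boundary peak at day 15, as did 2711 of all 2769 genes kept at day 30. At all 24 a day 30 peak overlapped a naive one. From day 15 to day 30, 24 of 62 members were kept (42.1% of all day 15 genes were), 38 were lost and 1 was gained, where 0.506% of all genes without a day 15 peak gained one.

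The strongest naive peaks that were kept included those of Rpl15, Rps21, Rpl36al, Rpl37, Rpl22l1, Rpl30, Rps29, Rps12, Rps3a1, Rpl7 and Rpl27a, which had 13 to 28 tags at day 30. The weakest naive peaks that were kept were those of Rps18, Rpl14, Rplp1, Rpl10, Rplp0 and Rps14, with 11 to 21 tags in the naive list and 14 to 19 at day 30. Rps18 had the weakest naive peak of the 24, and 6.02% of other genes of its naive strength were kept at day 30. Rpl14 had 15, 18 and 14 tags, and Rps14, the gene deleted in the 5q- form of myelodysplasia, had 21, 21 and 16.

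The strongest naive peaks lost at day 30 were those of Rpl31, Rps6, Rpl28, Rps13, Rpl4 and Rpl27. Rpl31 had 36 and 24 tags and no boundary peak at day 30, although 87.9% of other genes of its naive strength had one. Rpl28 had 29 and 24 tags, Rps13 had 20 and 24, Rpl27 had 21 and 24, and Rpl4 had 20 and 13. The Rpl4 peak lay at the far end of the gene, 5922 bases after the start, with its summit nearest to Snapc5, and its loss need not concern the Rpl4 promoter.

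Rpl9 was the 1 member gained at day 30, from 24 without a naive boundary peak, where 0.245% of all genes gained one. Its peak lay on chromosome 5 at 65391331 to 65391530, across the start printed above, with 15 tags (7.16 at naive depth). Rpl9 had no boundary peak at day 15 either, and the gene Lias has an end within 1000 bp of it.

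**Figure D3:**
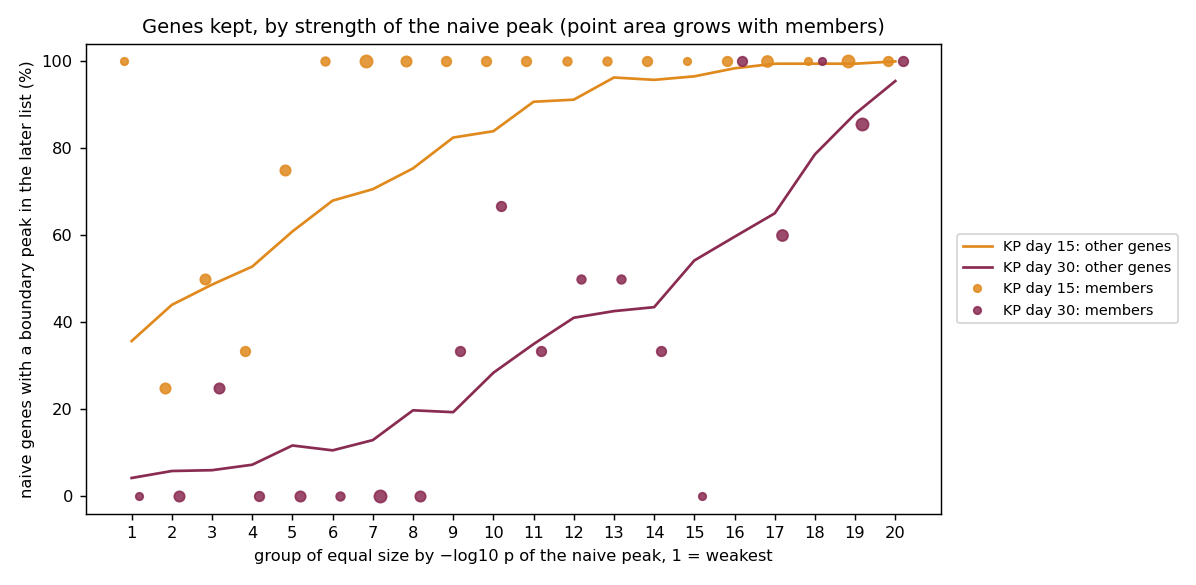
Share of genes with a naive boundary peak that also had one in the later list (y axis, percent), in 20 groups of equal size by −log10 p of the naive peak (x axis, 1 is the weakest); lines are other genes, points are members, larger where a group holds more, orange KP day 15 and purple KP day 30. Member points reach 100% at day 15 from the sixth group on and scatter around the line at day 30.

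Of the 18 members without a boundary peak in any list, 10 were core genes: Rpl5, Rpl6, Rpl8, Rpl17, Rpl19, Rpl22, Rpl23, Rpl37a, Rpl38 and Rps2. For some of these the call depends on where the annotated gene ends. When the RefSeq starts were used in place of the gene ends, Rps2 had a summit at position -49 from a start in the naive list (14 tags) and at -118 at day 15 (23 tags). Rpl22, which binds viral and cellular RNA as well, had 12 and 23 tags near a start, and Rpl19 had 16 tags at day 15. Rpl17 had a naive peak inside the gene, 1384 bp from its end, with 14 tags.

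Rpl38, whose protein is known for its role in the translation of Hox messenger RNAs, had its nearest naive peak 4153 bp away, and Rpl5 13843 bp. The other core genes without a boundary peak, Rpl6, Rpl8, Rpl23 and Rpl37a, had theirs at 10788 to 127868 bp. The 24 members without a naive boundary peak had a naive peak at a median distance of 22471 bp.

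Of the 7 paralogues, 3, 3 and 2 had a boundary peak in the naive, day 15 and day 30 lists. Rpl22l1, the paralogue of Rpl22, had 39, 28 and 15 tags in the 3 lists. Rpl22 itself had no boundary peak but had 12 and 23 tags near a RefSeq start in the naive and day 15 lists. Rpl36al had 39, 44 and 14 tags, with the day 15 summit nearest to Mgat2, and its X-linked relative Rpl36a 16, 15 and none. Rpl10l and Rpl39l, used mainly in male germ cells, had no boundary peak in any list, whereas Rpl10 had one in every list and Rpl39, at the exit tunnel, had 13 tags in both the naive and the day 15 list. Rpl7l1 had none, and Rpl7 was kept throughout. Rpl3l, a striated muscle gene, was counted with 20 and 28 tags, but the peak lay 3913 bases after its start with its summit nearest to Msrb1, and Rpl3 had 11 and 17 tags.

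Rps27l, a p53 target, had no boundary peak but had 20 and 22 tags near a RefSeq start in the naive and day 15 lists, where Rps27 had 12 and 16, with both summits nearest to Rab13. The retrogene-like copies Rps27rt, Rpl32l and Rpl37rt had none in any list, and neither did Rps23rg1. Rps19bp1 had 20 and 17 tags and none at day 30.

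Summits lay at the starts. For the 49 members with a naive boundary peak and a RefSeq start, 42 summits (85.7%) were within 250 bp of a start, against 76.8% of 6217 other genes, and the median position was -30 bp. At day 15 the median was -52 bp in 47 members and at day 30 -82.5 bp in 18, where other genes had medians of -50 and -63 bp. Of the member peaks, 9 of 65 in the naive list, 9 of 62 at day 15 and 2 of 25 at day 30 had their summit nearest to another protein-coding gene. Another gene had an end within 1000 bp of an end of 32 members (36.0%), against 24.8% of all genes. No 2 members shared a peak.

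**Figure D4:**
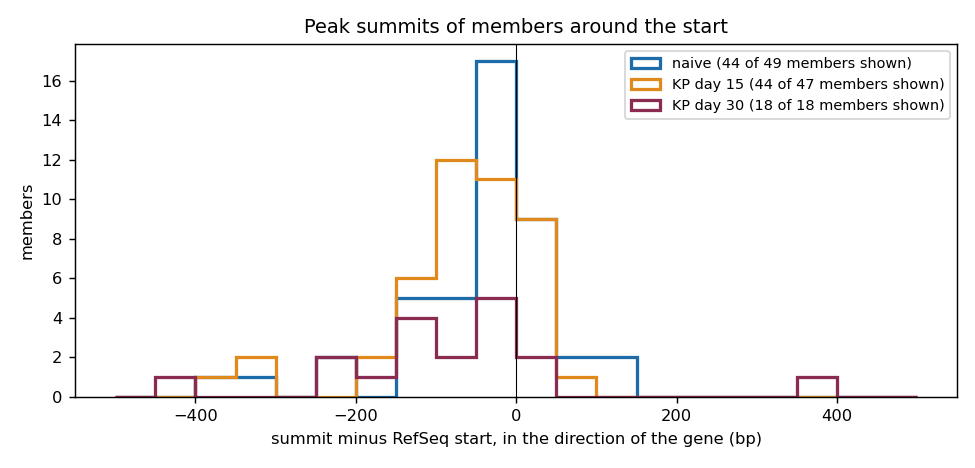
Number of members (y axis) by distance of the peak summit from the nearest RefSeq start in the direction of the gene (x axis, bp, bins of 50 bp, negative is before the start) in the 3 peak lists. Of the members with a start, 44 of 49 in the naive list, 44 of 47 at day 15 and 18 of 18 at day 30 lie within 500 bp.

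Ribosomal protein genes are known hosts of small nucleolar RNAs, which guide the modification of ribosomal RNA and are cut from introns. RefSeq places 59 such RNAs inside 30 of the 77 core genes (39.0%), against 1.70% of all protein-coding genes. Core genes with one had a naive boundary peak in 23 of 30 cases and core genes without one in 38 of 47. At day 30 the counts were 8 and 15. The 2 kinds had overlapping intervals in every list.

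Among ribosome genes outside the symbol rule, Fau had 10 and 21 tags and none at day 30, and Rack1 had no boundary peak. Of 36 ribosome assembly genes, 26 had one in the naive list, 26 at day 15 (23 kept and 3 gained) and 15 at day 30, where the numbers kept expected from genes of equal naive strength were 21.2 and 9.83. Among them Nop14 had 47, 41 and 25 tags, Rrp9, part of a snoRNA-protein complex, 41, 42 and 27, and the nucleolar protein genes Ncl 32, 33 and 19 and Npm1 19, 22 and 15.

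Of 14 genes of RNA polymerase I and its factors, which transcribe ribosomal RNA, 9, 5 and 1 had a boundary peak. Lost at day 15 were Polr1b, Rrn3, Taf1a and Taf1b, and Taf1d was the 1 kept at day 30, where genes of equal naive strength gave 6.07 and 1.8 kept. Of 14 genes of growth control and of promoter factors, a list that holds the member Rps6, 11, 10 and 7 had one, with 10 and 7 kept where genes of equal naive strength gave 10.2 and 7.77. Mtor had 30, 30 and 14 tags, the ETS factor gene Gabpa 38, 34 and 16 and Sp1 76, 62 and 38, and Myc had 13 naive tags and no later boundary peak. Larp1 had none in any list.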

How the data were processed

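ATAC-seq peak lists of 11 samples of sorted alveolar macrophages were used, 1 list per group, per the labels. The tools named in the submitters' processing notes are Bowtie2 2.3.4.1 and MACS2 2.1.1, with the build mm10. Settings, read filters, transposase shifts and the way samples were combined are not stated there. The deposited lists have the 10 columns of a narrowPeak file without headers. By their values they hold the authors' score, the fold over local background (a ratio), −log10 p-value, −log10 q-value and summit offset, all the authors' own values per peak.

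Summit pileup and local background were recovered from fold and p-value, assuming 1 added to pileup and to background in the fold, and a Poisson upper tail for p. In 100% of peaks a whole pileup gave p within 0.001. The most frequent background value of a list (0.785, 1.87 and 1.64 tags, at 807, 1030 and 346 peaks) was taken as its genome-wide background, on which the depths and the values over background rest. A lower value was found at 49 naive peaks. The scripts were tested on simulated data. Python 3.11.15, scipy 1.17.1 and statsmodels 0.14.6 were used. Gene ends came from RefSeq GRCm38.p6. Shares have 95% Wilson intervals. Where a gene had several boundary peaks, the one with the highest −log10 p was used.

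The members and lists were chosen with earlier results of these data known. Named were all members gained, lost at day 15, or without a peak, paralogues, stalk genes, the 6 strongest, those kept at day 30 (12 strongest and 6 weakest naive) and the 6 strongest lost; others were named after their values were seen, and a few genes are counted but not reported by name here. Alternatives covered distance, threshold, list length, gene end, neighbours, members and the measure of naive strength.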

Additional observations from a re-analysis of the deposited data

How the results depend on the processing

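No paired analysis was possible because each group has 1 peak list, so that sample numbers carry no values; for the same reason no replicate could be left out. Alternatives were boundary distances of 500 and 2000 bp, a −log10 q of at least 3 and a 50% overlap. Starts only, nearest gene only and core genes only were also run. All of these left the 5 member counts within 1.5 times. Other measures of naive strength cannot change a member count and moved only the number expected. At day 15 it went from 51.6 to 51.4 or 50.3, and at day 30 from 24.0 to 23.7 or 22.9. With the top 3352 peaks of every list, 24, 30 and 25 members had a boundary peak. Their shares were 26.97%, 33.71% and 28.09%, beside 12.77%, 13.02% and 12.81% of all genes. The fall in member count from the naive to the day 30 list was thus absent at equal list length. At this length 23 of 24 naive members were kept at day 15 (19.2 from genes of equal strength) and 18 at day 30 (17.0). The median naive −log10 p was 27.9. At day 15 the count kept was above that of equal strength in the alternatives run, which reuse the same genes. It was 46 against 42.9 with the nearest gene only, 61 against 54.6 at 2000 bp and 44 against 37.9 with starts only. With naive pileup as the measure of strength it was 57 against 50.3, an expected share just below the interval of the reported share. The difference in the reported count is within counting error, but this depends on the setting, and no interval is given for starts only. At day 30 the count kept differed from that of equal strength by less than 3 genes in every alternative run. A pyrimidine run of at least 8 within 20 bases of the start, added after seeing the data, was in 40.7% of member promoters and 15.8% of all. Pileups of about 6 tags set the limit of the naive list, so weaker peaks were not detectable there.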

Other observations

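Ribosomal protein genes have many processed pseudogene copies in the mouse genome. Of 321 annotated ribosomal protein pseudogenes, 0 overlapped a peak in any list, which allows a share of up to 0.935% (3 counts, counting error only). Among 10291 other pseudogenes, 89 (0.865%) overlapped a naive peak, 65 (0.632%) a day 15 peak and 16 (0.155%) a day 30 peak. Each share lay below that limit, so the counts cannot tell ribosomal protein pseudogenes from the others. Rpl21-ps1 had a peak within 1000 bp of an end in every list, with 14, 21 and 14 tags. The treatment of reads that match several places is not stated in the labels, and its part in these counts was not tested.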
